A study of Danio rerio with 20 samples.

Results

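The effect of age on the zebrafish liver was described in 13 of 20 RNA sequencing libraries, those that held little or no intestinal tissue. The libraries were chosen by a limit of at most 100 CPM (counts scaled to the library total) of fabp2, the intestinal fatty acid binding protein, which enterocytes make and hepatocytes do not. All 20 libraries came from livers of male Danio rerio of strain AB JxTu in a design of age (3 years or 1 year) by exercise (a swim tunnel, in which fish swim against a current, or none), with 5 libraries in each combination. The 13 libraries were 2 of exercised 3-year fish (replicates 3 and 4), 4 of resting 3-year fish (replicates 1, 2, 4 and 5), 3 of exercised 1-year fish (replicates 1, 2 and 5) and 4 of resting 1-year fish (replicates 1 to 4). The comparison is therefore of 6 libraries of 3-year fish with 7 libraries of 1-year fish, with exercise as the second factor. The labels do not say whether each library came from a separate fish, so the p-values describe the spread among these libraries, which may be technical. They give neither the time of day of sampling nor the time since the last meal.

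Fabp2 chose the libraries, and its values are a description. It was at most 5.73 CPM in the 13 libraries and at least 282.5 CPM in the other 7, where it reached 3480 CPM, so that no library lay near the limit. Of the 27 other genes in a list of intestinal markers, 19 were lower in every 1 of the 13 libraries than in any of the other 7. Fish of this species have pancreatic tissue close to the liver, and exocrine pancreas transcripts were not used in the choice. A list of 37 genes of digestive enzymes and pancreatic acinar markers summed to between 423 and 129138 CPM in the 6 libraries of 3-year fish and to between 453 and 154804 CPM in the 7 libraries of 1-year fish. The median sums were 2269 CPM at 3 years and 8400 CPM at 1 year. The sum exceeded 20000 CPM in 4 libraries, resting 3-year replicate 5, exercised 1-year replicate 1 and resting 1-year replicates 2 and 4, called pancreas-rich below. Hepatocyte markers summed to between 190804 and 317205 CPM in 3-year libraries and to between 218699 and 315181 CPM in 1-year libraries, so the labelled tissue was present in all 13. Total counts were from 33046127 to 47169864 per library. On the first principal component, which held 19.9% of the variance, 5 of the 6 libraries of 3-year fish lay above all 7 libraries of 1-year fish. The exception was resting 3-year replicate 1.

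**Figure D1:**
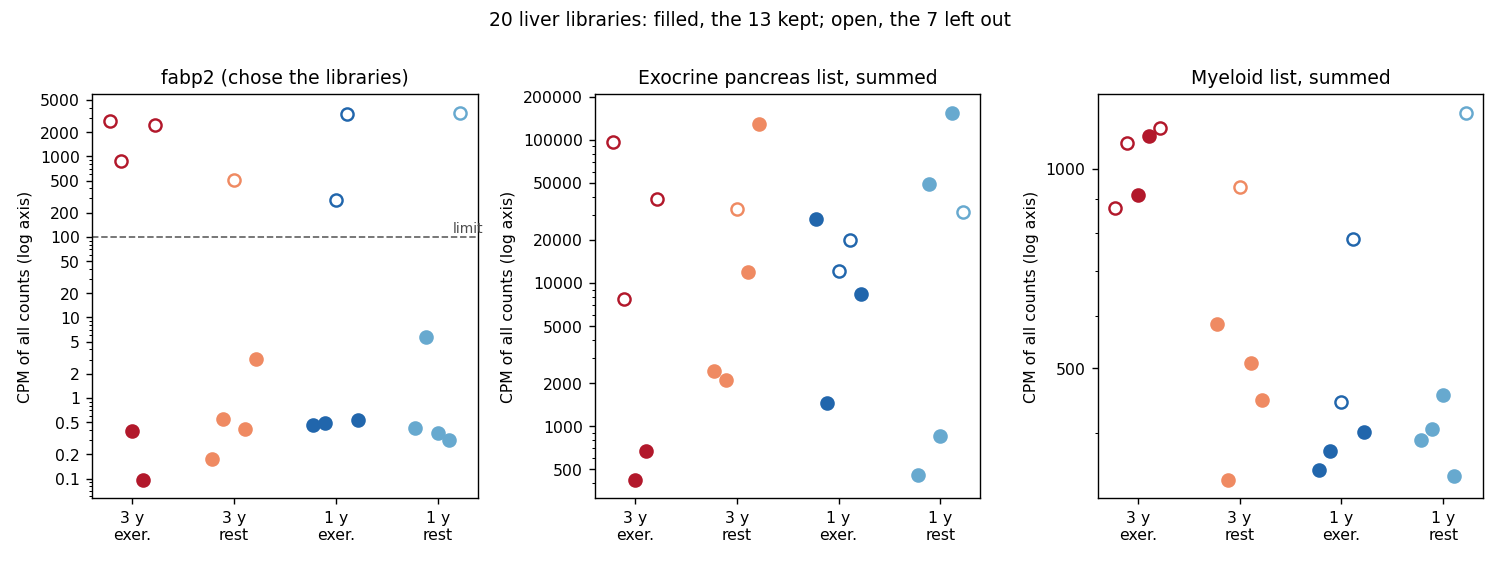
CPM of all counts on a log axis for each of the 20 libraries, by group. Filled points are the 13 libraries kept and open points the 7 left out; panels show fabp2 with the limit of 100 CPM, the summed exocrine pancreas list and the summed list of myeloid (macrophage and neutrophil) markers. The fabp2 values fall into separate ranges, at most 5.73 CPM and at least 282.5 CPM. The pancreas sum varies widely in both ages, with medians among the filled points of 2269 CPM at 3 years and 8400 CPM at 1 year.

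The liver turns dietary carbohydrate into fatty acids and sterols, oxidises fat when food is short, and secretes most plasma proteins, complement factors among them. Enzymes of fatty acid and sterol synthesis are switched together by the SREBP transcription factors, which respond to sterol level and to insulin, and many of them follow feeding and the circadian clock. Hepcidin, made by hepatocytes, limits the release of iron into blood and rises with iron load and inflammation.

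At 3 years, transcripts of many lipid and sterol synthesis genes were lower, and those of hepcidin and of some complement and myeloid genes were higher. Of 18120 genes tested, 956 were called at an adjusted p under 0.05 by edgeR's quasi-likelihood test with exercise as second factor (Benjamini-Hochberg adjustment). They were 5.28% of the genes tested, 389 higher at 3 years (2.15%) and 567 lower (3.13%). Levels of the 6 and 7 libraries did not overlap for 142 genes that were higher at 3 years (0.784%) and for 253 that were lower (1.4%). Genes named below by smallest p or largest fold had to be without overlap, so its absence in them follows from the choice. The median log2 difference over all genes was 0.02. Of 37 gene lists of pathways and cell types, cholesterol synthesis had the lowest median among the pathway lists, and myeloid markers and complement had the highest medians among the lists with called members. With the exocrine pancreas level as a covariate 806 genes were called, 304 higher and 502 lower. Without the 4 pancreas-rich libraries (5 of 3-year and 4 of 1-year fish left) only 4 genes were called. In that comparison the 88 genes named by rule kept their direction, with log2 differences of 0.639 to 1.23 times those in 13 libraries (median 0.971 times), and 3 of the 88, AACS, CYB5R2 and prodha, were called. The 88 were chosen as called genes in the 13 libraries, and the libraries left are part of these. Their kept direction is therefore no independent support.

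**Figure D2:**
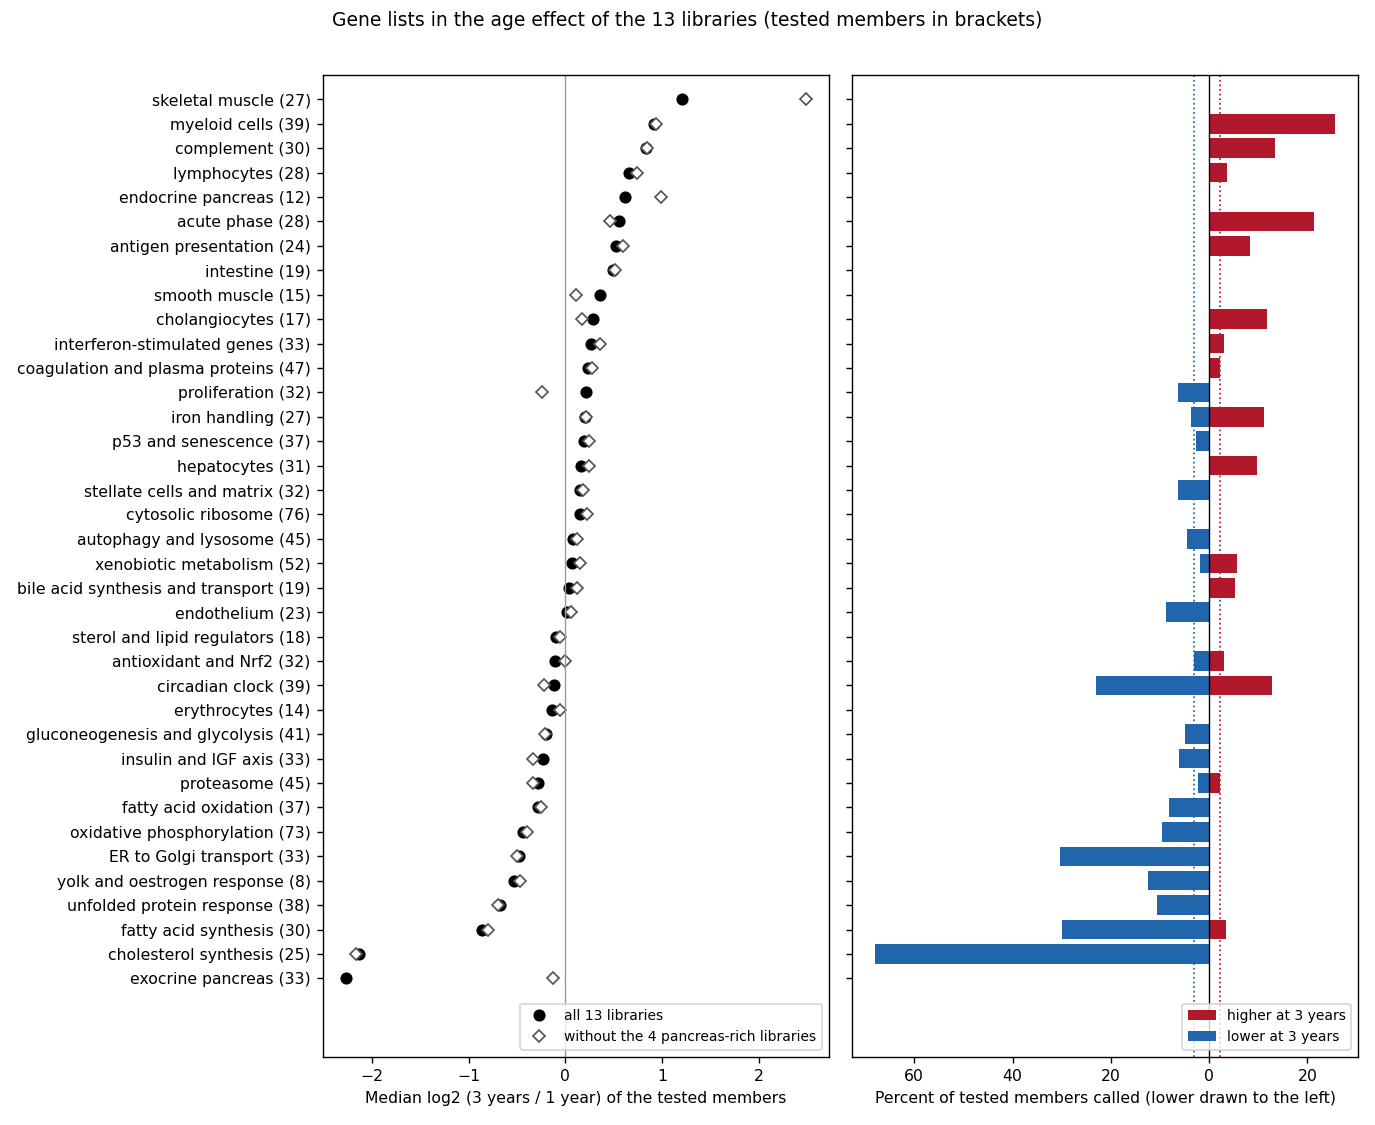
Gene lists, with the number of tested members in brackets, ordered by the median log2 difference (3 years over 1 year) of their tested members in the 13 libraries (filled) and without the 4 pancreas-rich libraries (open). On the right, the percent of tested members called higher or lower at 3 years is drawn with dotted lines at the background of 2.15% and 3.13%; 17 of 25 cholesterol synthesis genes were lower.

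Several fatty acid synthesis genes were far lower at 3 years. Of 30 tested members of that list, 9 were lower at 3 years, 1 was higher and 20 did not pass, with a median log2 difference of -0.86. ACACA, acetyl-CoA carboxylase, makes the malonyl-CoA from which fatty acids are built. It had a lowest, median and highest level of 10.8, 18.2 and 56.9 CPM in 3-year libraries, against 349.9, 1241 and 1753 CPM in 1-year libraries. Every 3-year library was below every 1-year library (log2 difference -5.63, SE 0.51, adjusted p = 0.00100). FASN, fatty acid synthase, had 8.30, 14.1 and 38.1 CPM at 3 years and 149.7, 1029.9 and 1634 CPM at 1 year, again with no overlap (log2 difference -5.61, SE 0.74, adjusted p = 0.00391). SCD, the desaturase that makes monounsaturated fatty acids, had the largest difference among the genes named. Its levels were 0.397, 0.769 and 5.73 CPM at 3 years and 16.6, 294 and 640.3 CPM at 1 year (log2 difference -7.80, SE 1.03, adjusted p = 0.00391). The library nearest to the other age was resting replicate 1 at 3 years and resting replicate 3 at 1 year.

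AACS, which feeds the ketone body acetoacetate into lipid synthesis, had 0.841, 1.49 and 4.77 CPM at 3 years and 26.9, 60.8 and 326 CPM at 1 year (log2 difference -5.79, SE 0.64, adjusted p = 0.00168). It separated the ages without overlap. Other called members, named after their values were seen, included PGD, thrsp, GPAM and ACLY (ENSDARG00000099079) among those lower and ACSL4 (ENSDARG00000010752) as the one higher, with log2 differences of -2.37, -3.48, -1.64, -2.86 and 1.78. The other ACSL4 entry (ENSDARG00000004078) averaged 26.8 CPM at 3 years and 50.1 CPM at 1 year and did not pass (log2 difference -0.87, adjusted p = 0.124). The other ACLY entry (ENSDARG00000055652) did not pass either (log2 difference -0.35, adjusted p = 0.525). The elongase gene ELOVL6 averaged 78.8 CPM at 3 years and 802 CPM at 1 year but did not pass (log2 difference -3.58, SE 1.1, adjusted p = 0.0754).

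Most sterol synthesis genes were lower at 3 years. Of 25 tested members 17 were lower at 3 years, none was higher and 8 did not pass, with a median log2 difference of -2.13. LSS, lanosterol synthase, closes the sterol ring. It had 0.972, 4.2 and 10.5 CPM at 3 years and 18.4, 102 and 269 CPM at 1 year (log2 difference -4.68, SE 0.56, adjusted p = 0.00262). FDPS, which makes farnesyl diphosphate, had 4.83, 9.19 and 27.9 CPM at 3 years and 22.9, 145 and 644 CPM at 1 year (log2 difference -4.25, SE 0.61, adjusted p = 0.00463). LSS did not overlap between the ages, and FDPS overlapped. EBP, a sterol isomerase late in the pathway, had 1.69, 3.12 and 5.34 CPM at 3 years against 7.65, 34.9 and 130.0 CPM at 1 year (log2 difference -3.83, SE 0.54, adjusted p = 0.00463). MVK, mevalonate kinase, had 0.678, 0.969 and 1.21 CPM at 3 years against 1.6, 9.16 and 31.5 CPM at 1 year (log2 difference -3.63, SE 0.53, adjusted p = 0.00467). Both stayed below every 1-year library.

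**Figure D3:**
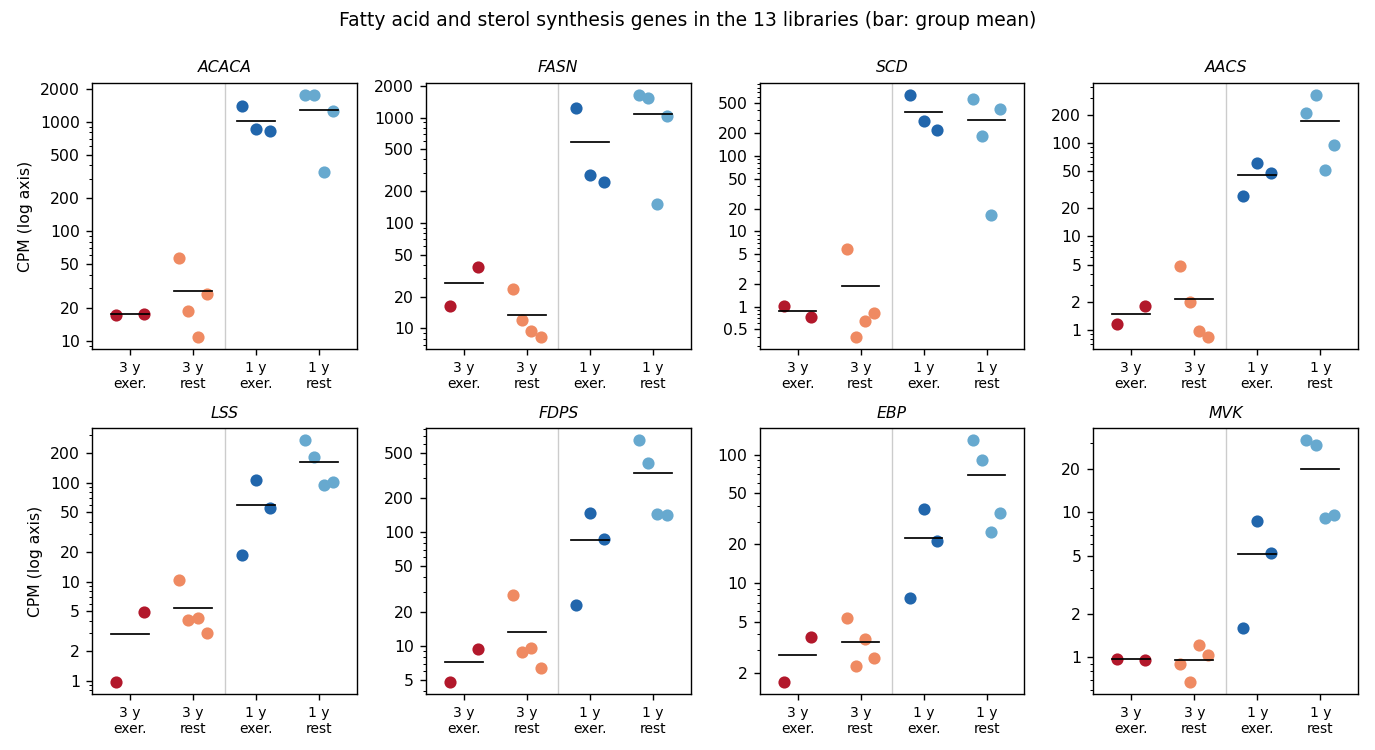
CPM on a log axis of 4 fatty acid synthesis genes (top) and 4 sterol synthesis genes (bottom) in each of the 13 libraries, with a bar at the group mean. Except for FDPS, all 6 libraries of 3-year fish lie below all 7 libraries of 1-year fish in the genes drawn.

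The regulators of these enzymes gave no call. Of 18 tested regulators of sterol and lipid genes none was called, and their median log2 difference was -0.10 (1 was called by DESeq2). SREBF1, which drives fatty acid synthesis genes, averaged 12.1 CPM at 3 years and 24.3 CPM at 1 year (log2 difference -1.02, SE 0.42, adjusted p = 0.172), and srebf2, which drives sterol synthesis genes, averaged 33.4 and 56.2 CPM in 3-year and 1-year libraries (log2 difference -0.74, SE 0.33, adjusted p = 0.208). On leaving out single libraries, 8 to 12 fatty acid synthesis genes and 11 to 19 sterol synthesis genes were lower at 3 years. Without the 4 pancreas-rich libraries the medians were -0.80 and -2.16 for the 2 lists, with 1 and 0 members called.

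Some genes of the early secretory pathway were lower at 3 years as well. These proteins carry newly made protein from the endoplasmic reticulum (ER) to the Golgi, a large flow in a liver that secretes plasma proteins. Of 33 tested ER to Golgi genes 10 were lower, none higher and 23 did not pass (median log2 difference -0.48). COPB1, a coat subunit of vesicles that return to the ER, had 27.24, 36.1 and 43.6 CPM at 3 years and 56.7, 63.7 and 105 CPM at 1 year, with no overlap (log2 difference -1.02, SE 0.14, adjusted p = 0.00393). SEC31A, in the coat of vesicles that leave the ER, had 5.51, 12.9 and 27.3 CPM at 3 years and 36.5, 47.5 and 74.6 CPM at 1 year (log2 difference -1.78, SE 0.31, adjusted p = 0.00931). COPG2 and sec23a also did not overlap between the ages, with log2 differences of -0.77 and -0.54 (adjusted p = 0.0209 and 0.0211). Of 38 genes of the unfolded protein response, which protects the ER under load, 4 were lower, none higher and 34 did not pass (median -0.68). HYOU1, an ER chaperone, averaged 29.5 ± 12.7 CPM at 3 years and 179 ± 158 CPM at 1 year (SD, n = 6 and 7; log2 difference -2.39, adjusted p = 0.0239), with overlap. Acinar cells of the pancreas are also rich in these transcripts. Their part in these differences was not tested, and the values that follow are a description. The exocrine pancreas list had a median log2 difference of -2.27 in the 13 libraries and -0.13 without the pancreas-rich ones. With the exocrine pancreas level as a covariate 10 ER to Golgi genes and 7 genes of the unfolded protein response were lower (medians -0.51 and -0.85). Without the pancreas-rich libraries the medians of the 2 lists were -0.50 and -0.70 with 0 members called, and on leaving out single libraries 2 to 16 and 0 to 12 members were lower.

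Mitochondrial and other metabolic genes gave fewer calls. Their counts stand beside a background over all genes tested of 2.15% higher and 3.13% lower. Of 73 subunits and assembly genes of oxidative phosphorylation, 7 were lower at 3 years, none higher and 66 did not pass, and only 2 of the 73 had a log2 difference above 0 (median -0.44). ATP5F1B, the catalytic subunit of ATP synthase, had 535, 676 and 997 CPM at 3 years and 994, 1152 and 1488 CPM at 1 year, which overlapped narrowly (log2 difference -0.74, SE 0.18, adjusted p = 0.0355). NDUFA10 of complex I fell by 0.74 on the log2 scale (adjusted p = 0.0386). The share of counts from mitochondrial genes was 3.13% to 3.82% in exercised and 4.24% to 6.16% in resting 3-year libraries, against 6.40% to 7.90% in exercised and 4.06% to 6.22% in resting 1-year libraries, and its part in these counts was not tested. The count of lower members ran from 0 to 18 on leaving out single libraries. Of 37 fatty acid oxidation genes 3 were lower and none higher (median -0.29). PDK2 (ENSDARG00000020876), a pyruvate dehydrogenase kinase, was the clearest, with 14.8, 23.9 and 63.7 CPM at 3 years and 76.8, 113 and 209.9 CPM at 1 year (log2 difference -2.05, SE 0.39, adjusted p = 0.0134). The other PDK2 entry (ENSDARG00000059054) did not pass (log2 difference -1.19, adjusted p = 0.205). Nor did cpt1ab and CPT2, with log2 differences of 0.73 and -1.06 (adjusted p = 0.0587 and 0.0769). Of 41 genes of glucose metabolism 2 were lower and none higher, beside the background of 3.13% lower. They were g6pc1a.1, which releases glucose from glucose 6-phosphate, and PKLR, the liver pyruvate kinase, with log2 differences of -0.86 and -0.79 (adjusted p = 0.0189 and 0.0289).

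Clock genes moved in both directions. The clock runs by a loop in which BMAL and CLOCK switch on period and cryptochrome genes, whose products repress them, while REV-ERB and ROR receptors repress and activate BMAL. Of 39 tested clock genes 5 were higher at 3 years, 9 were lower and 25 did not pass. The cryptochrome gene cry3b had 30.6, 43.7 and 82.5 CPM at 3 years and 8.52, 14.0 and 20.0 CPM at 1 year, with no overlap (log2 difference 1.8, SE 0.19, adjusted p = 0.00161). The ROR receptor gene rorcb had 30.9, 45.5 and 69.8 CPM at 3 years and 3.46, 7.74 and 30.6 CPM at 1 year (log2 difference 1.90, SE 0.45, adjusted p = 0.0314). Its highest 1-year library lay just below its lowest 3-year library. BMAL1 (ENSDARG00000006791) was higher as well, by 0.79 on the log2 scale (adjusted p = 0.00877), a gene singled out after its values were seen. The other BMAL1 entry (ENSDARG00000035732) averaged 4.85 CPM at 3 years and 4.87 CPM at 1 year (log2 difference 0.02, adjusted p = 0.983). The related gene bmal2 was called higher (log2 difference 0.71, adjusted p = 0.0484).

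The lower genes included outputs and repressors of the clock, but the calls did not divide by role. Of the cryptochrome genes, cry3b was higher, as given above, and CRY2 was lower (log2 difference -0.58, adjusted p = 0.0455). Also called were npas2, lower (log2 difference -1.81, adjusted p = 0.0111), and nfil3-5, higher (log2 difference 2.93, adjusted p = 0.0310). CRY2, npas2 and nfil3-5 were named after their values were seen. The output factor gene dbpb had 2.03, 4.15 and 5.42 CPM at 3 years and 14.6, 25.4 and 45.6 CPM at 1 year, with no overlap (log2 difference -2.72, SE 0.34, adjusted p = 0.00262). NR1D1, REV-ERB alpha, had 0.718, 6.28 and 19.8 CPM at 3 years and 16.6, 39.8 and 94.3 CPM at 1 year, with overlap (log2 difference -2.80, SE 0.42, adjusted p = 0.00507). The output factor gene tefa fell by 1.05 on the log2 scale (adjusted p = 0.00736). Both copies of PER1 in the list were also called lower (log2 difference -1.05 for ENSDARG00000012499 and -2.82 for ENSDARG00000056885), named after their values were seen. Leaving out single libraries left 2 to 6 clock genes higher and 6 to 10 lower, and without the pancreas-rich libraries none was called.

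Some iron handling genes were higher at 3 years. Hepcidin, the gene hamp, had 56.4, 164 and 256 CPM at 3 years and 2.04, 4.95 and 33.2 CPM at 1 year, with no overlap (log2 difference 4.21, SE 0.71, adjusted p = 0.00821). The ferritin heavy chain-like gene fthl27 had 129, 272 and 472 CPM at 3 years and 24.1, 54.6 and 103 CPM at 1 year (log2 difference 2.26, SE 0.38, adjusted p = 0.00786). Of 27 iron handling genes 3 were higher, 1 was lower and 23 did not pass (median 0.20). The lower one was another ferritin heavy chain gene, FTH1, without overlap (log2 difference -0.80, SE 0.17, adjusted p = 0.0197). A further ferritin gene, fth1a, averaged 174 CPM at 3 years and 304 CPM at 1 year and did not pass (log2 difference -0.71, SE 0.25, adjusted p = 0.106). The main transferrin gene tfa averaged 56743.9 CPM at 3 years and 64221 CPM at 1 year and was not called (log2 difference -0.18, SE 0.27, adjusted p = 0.758).

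Complement genes were higher at 3 years in 4 of 30 cases, lower in none, and 26 did not pass, with 26 of the 30 above 0 (median 0.84). C9, c9 in the files, forms the pore of the attack complex. It had 4932, 10497 and 11733 CPM at 3 years and 1912, 2957 and 7749 CPM at 1 year, with overlap (log2 difference 1.36, SE 0.34, adjusted p = 0.0366). The C3 copy c3a.3 had 1196, 2154 and 3908 CPM at 3 years and 819, 1069 and 1690.0 CPM at 1 year (log2 difference 1.09, SE 0.26, adjusted p = 0.0330), and c3 copies are close in sequence, so that their reads may be shared. The other 2 calls were c7a, another component of the attack complex, and f13b, with log2 differences of 2.02 and 1.74 (adjusted p = 0.0186 and 0.0277). The gene f13b was also in the list of 47 coagulation and plasma protein genes, as its only call, beside a background of 2.15% higher. Properdin, cfp, which stabilises the C3 convertase and was not in the list, did not overlap between the ages, at 4.67 to 19 CPM in 3-year libraries and 1.42 to 4.23 CPM in 1-year libraries (log2 difference 2.13, SE 0.38, adjusted p = 0.0101). Of 28 acute phase genes 6 were higher and none lower (median 0.56), among them hamp and ACOD1, an enzyme of activated macrophages (log2 difference 1.28, adjusted p = 0.0273). A further call, tnfa, was close to 0 in every library, at 0.278 CPM or less. The other calls were irg1l, and cxcl8a and CEBPB, named after their values were seen. Among those that did not pass, apcs, hp and crp1 had log2 differences of 1.01, 1.72 and -2.33 (adjusted p = 0.126, 0.417 and 0.345).

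Myeloid markers were higher in 10 of 39 cases and lower in none, 29 did not pass, and 37 of 39 were above 0 (median 0.91). MPEG1 (ENSDARG00000043093), the macrophage perforin, had 2.04, 3.89 and 6.58 CPM at 3 years and 0.816, 1.07 and 2.97 CPM at 1 year, with overlap (log2 difference 1.55, SE 0.31, adjusted p = 0.0163). IRF8, a transcription factor that macrophages need, averaged 3.92 ± 1.18 CPM at 3 years and 1.44 ± 0.762 CPM at 1 year (SD, n = 6 and 7; log2 difference 1.49, adjusted p = 0.0243). The granulin gene grna.2 was at 2.51 to 14.0 CPM in 3-year libraries and at 0.309 to 1.93 CPM in 1-year libraries (log2 difference 2.49, adjusted p = 0.0119). Among those that did not pass, cd68 averaged 231 CPM at 3 years and 224 CPM at 1 year (log2 difference 0.03, adjusted p = 0.967). The genes csf1ra, csf1rb and lyz did not pass either, with log2 differences of 0.29, -0.10 and -0.82. The summed myeloid list was 339.8 to 1119 CPM at 3 years and 344 to 455 CPM at 1 year, and the 2 exercised 3-year libraries held the highest sums of the 13, at 913 and 1119 CPM. A large part of these 2 sums came from a single member, MFAP4 (ENSDARG00000090557). It had 403 and 490 CPM there (by TMM library sizes), against 48.7 to 73.0 CPM in resting 3-year libraries. In bulk RNA more cells of a type and more RNA per cell cannot be told apart. Of 28 lymphocyte markers 1 was higher, lck (log2 difference 0.99, adjusted p = 0.0473), beside a background of 2.15% higher. Of 24 antigen presentation genes 2 were higher, ciita and cd74a (log2 difference 1.17 and 1.35, adjusted p = 0.0246 and 0.0478). Complement, acute phase and myeloid calls ran from 1 to 18, 2 to 7 and 3 to 21 on leaving out single libraries, and none remained without the pancreas-rich libraries, where the medians were 0.84, 0.46 and 0.94.

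**Figure D4:**
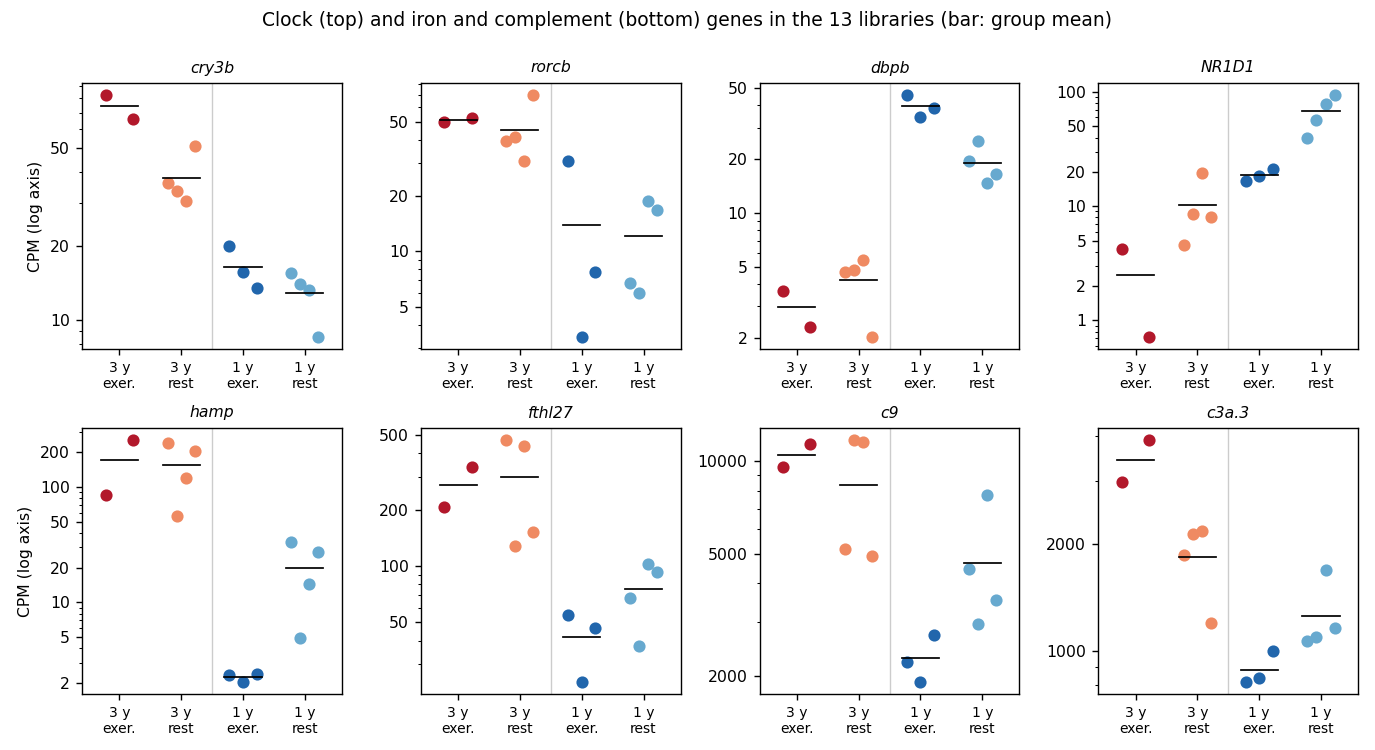
CPM on a log axis of 4 clock genes (top) and of 2 iron and 2 complement genes (bottom) in each of the 13 libraries, with a bar at the group mean. The ages do not overlap for cry3b, rorcb, dbpb, hamp and fthl27; for NR1D1, c9 and c3a.3 they do.

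Several of the clearest differences lay outside these lists. Among the lower genes, prodha, which starts the breakdown of proline, had 2.15, 3.93 and 9.25 CPM at 3 years and 33.9, 104 and 182 CPM at 1 year (log2 difference -4.47, SE 0.45, adjusted p = 0.00139). CYB5R2, a cytochrome b5 reductase, had 7.91, 9.79 and 14.3 CPM at 3 years and 19.7, 33 and 45.4 CPM at 1 year (log2 difference -1.68, SE 0.17, adjusted p = 0.00139). AACS, CYB5R2 and prodha were called under each of 25 alternatives. The lipid droplet hydrolase gene ldah, the secreted phospholipase gene pla2g3, the leucyl-tRNA synthetase gene LARS1 and frya had log2 differences of -2.40, -4.72, -1.25 and -2.05, each without overlap (adjusted p = 0.00262, 0.00510, 0.00266 and 0.00262). Matrix genes gave 2 lower calls among 32, loxl2a, a lysyl oxidase-like enzyme that cross-links collagen, and TGFBI, a secreted matrix protein, with log2 differences of -2.99 and -1.68 (adjusted p = 0.00979 and 0.0140). None was higher, and the list median was 0.15 beside a background of 3.13% lower. Neither FN1 entry passed. ENSDARG00000006526 averaged 7037 CPM at 3 years and 4974 CPM at 1 year (log2 difference 0.50), and ENSDARG00000019815 had a log2 difference of -1.84. For loxl2a the levels were 5.36, 9.70 and 15.7 CPM at 3 years and 27.17, 78.2 and 232 CPM at 1 year.

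Among the higher genes, fgfr4, the FGF receptor of hepatocytes that restrains bile acid synthesis in mammals, had 48.9, 74.1 and 92.8 CPM at 3 years and 9.77, 20.9 and 34.2 CPM at 1 year, with no overlap (log2 difference 1.88, SE 0.28, adjusted p = 0.00501). It was the only 1 of 19 bile acid genes called. The background over all genes tested was 2.15% higher and 3.13% lower, for this list and those that follow. The cytochrome P450 gene cyp2k18 had 35.2, 51.4 and 68.6 CPM at 3 years and 4.34, 7.17 and 24.3 CPM at 1 year (log2 difference 2.47, SE 0.37, adjusted p = 0.00507), and of 52 xenobiotic metabolism genes 3 were higher and 1 lower. Of 17 cholangiocyte markers 2 were higher, among them the keratin gene krt18b (log2 difference 0.92, adjusted p = 0.0354). Further genes without overlap were ARSG, a lysosomal sulfatase (log2 difference 2.19, adjusted p = 0.00262), mst1ra, related to the receptor of macrophage stimulating protein (2.42, adjusted p = 0.00463), EFCAB7 (1.08, adjusted p = 0.00463), ID2, an inhibitor of DNA-binding factors (1.35, adjusted p = 0.00497), and CLASP1, which steadies microtubules (0.88, adjusted p = 0.00565).

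Other lists gave few calls or none, beside a background over all genes tested of 2.15% higher and 3.13% lower. None of 76 cytosolic ribosome genes was called, though 74 of them had a log2 difference above 0 (median 0.15). SESN1 was the single call, lower, among 37 genes of p53 and senescence (log2 difference -1.34, adjusted p = 0.00671). SOD2, the mitochondrial superoxide dismutase, was lower and NFE2L2, the factor that drives antioxidant genes, was higher, both without overlap (log2 difference -0.78 and 0.81, adjusted p = 0.0219 and 0.0243), as the 2 calls among 32 antioxidant genes. IRS2 (ENSDARG00000037099), which relays the insulin signal, was at 0.222 to 12.9 CPM in 3-year libraries and 22.4 to 51.6 CPM in 1-year libraries (log2 difference -2.95, SE 0.78, adjusted p = 0.0457). It was 1 of 2 genes called, both lower, among 33 of the insulin and IGF axis. The other IRS2 entry (ENSDARG00000075282) averaged 21.3 CPM at 3 years and 20.2 CPM at 1 year (log2 difference 0.07, SE 0.52, adjusted p = 0.963). Of 31 hepatocyte markers 3 were higher (serpina1l, foxa3 and itih3a.1, with log2 differences of 1.38, 1.09 and 0.83), none was lower and 28 did not pass, with a list median of 0.16. CEBPA and fabp10a, at -1.42 and -0.49, were among those that did not pass. Of 23 endothelial markers 2 were lower (KDR and FLT4, -1.15 and -0.63), none was higher and 21 did not pass, with a list median of 0.01 beside a background of 3.13% lower. Among those that did not pass, stab1 and plvapb had log2 differences of 0.68 and 0.78. Of 32 proliferation genes 2 were lower (MCM2 and MCM5, -1.36 and -1.05) and none was higher, with a list median of 0.21. Among those that did not pass, mki67 and TOP2A had log2 differences of 0.90 and 0.84, and MCM3 had -0.85. Of 45 autophagy and lysosome genes 2 were lower (LIPA and WIPI1, -0.87 and -0.52) and none was higher, with a list median of 0.08. Among 45 proteasome genes PSMD6 was lower and PSMB10 higher (-0.74 and 1.03). Among markers of other tissues, none of 19 intestinal, 33 exocrine pancreas, 12 endocrine pancreas, 14 erythrocyte, 27 skeletal muscle or 15 smooth muscle genes was called by edgeR in the 13 libraries. By DESeq2, 1 intestinal, 1 exocrine pancreas, 1 erythrocyte and 1 smooth muscle gene were. Their medians ranged from -2.27 for exocrine pancreas to 1.2 for skeletal muscle.

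Taken within each exercise state, age gave 434 calls at rest (4 against 4 libraries, 2.4% of genes tested) and 437 after exercise (2 against 3 libraries, 2.41%). At rest 129 were higher and 305 lower, and after exercise 218 were higher and 219 lower. The calls shared 65 genes, 15.0% of those at rest and 14.9% of those after exercise, and 64 of the 65 had the same direction. Among genes named at rest, EIF2AK3, the kinase PERK of the unfolded protein response, was at 4.82 to 8.73 CPM in resting 3-year libraries and at 28.1 to 39.1 CPM in resting 1-year libraries (log2 difference -2.19, SE 0.25, adjusted p = 0.00554). In exercised libraries EIF2AK3 was at 8.91 and 14.4 CPM at 3 years and at 5.44 to 9.37 CPM at 1 year. Its age effect over the 13 libraries did not pass (log2 difference -1.14, SE 0.45, adjusted p = 0.148). The monocarboxylate transporter gene SLC16A4 was among those named after exercise, at 4.29 and 5.83 CPM in exercised 3-year libraries and at 46.6, 84.1 and 98.3 CPM in exercised 1-year libraries (log2 difference -3.92, SE 0.47, adjusted p = 0.00526). Cholesterol synthesis had 15 lower members at rest and 3 after exercise, with medians of -2.40 and -1.37. Oxidative phosphorylation had 0 and 14 lower members, with medians of -0.21 and -0.90, and complement had 0 and 12 higher members, with medians of 0.36 and 1.6. Myeloid markers had 0 and 12 higher members, with medians of 0.49 and 1.48. After exercise the 3-year group was 2 libraries, and the lists of other tissues differed most there: the median was -6.0 for exocrine pancreas and 3.92 for skeletal muscle, whose sum was 708 CPM in exercised 3-year replicate 4. Their part in the counts was not tested. These counts do not test a difference between the 2 exercise states, and both sets of calls were sensitive to single libraries, with 85 to 762 calls at rest and 17 to 687 after exercise on leaving out 1 library.

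The difference itself, the interaction of age with exercise, was called for 20 of 18120 genes (0.11%), 17 with a higher age effect after exercise and 3 with a lower one. For 3 of the 8 genes named by rule, both exercised 3-year libraries were above the other 11. The 8 were chosen by the smallest p of this interaction, so such patterns follow in part from the choice. The share of all genes with this pattern was not counted. NF-kappaB inhibitor alpha, nfkbiaa, had 24.7 and 32.2 CPM in exercised 3-year libraries and 5.47 to 11.9 CPM in resting ones, against 2.56, 3.61 and 3.87 CPM in exercised 1-year libraries and 5.77 to 7.86 CPM in resting ones (interaction 2.81 on the log2 scale, SE 0.39, adjusted p = 0.0375). The adaptor gene tifa, which acts upstream of NF-kappaB, had 16.1 and 21.9 CPM in exercised and 3.36 to 6.45 CPM in resting 3-year libraries, against 2.31, 2.60 and 3.79 CPM in exercised and 4.36 to 6.86 CPM in resting 1-year libraries (interaction 2.82, SE 0.39, adjusted p = 0.0375). In both genes the 2 exercised 3-year libraries stood above the other 11. MFAP4 (ENSDARG00000090557), from a family that marks macrophages in zebrafish, did so too, with 403 and 490.4 CPM, against 48.7 to 73.0 CPM in resting 3-year libraries and 31.0 to 64.5 CPM in all 1-year libraries (interaction 2.99, SE 0.42, adjusted p = 0.0375). These are the 2 libraries with the highest myeloid sums, but this MFAP4 gene is itself in the myeloid list and adds to those sums. The sums are therefore not separate from its result, and the part of those cells was not tested.

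The remaining named genes followed other patterns. SOX6 and pbxip1a were lower in exercised than in resting 1-year libraries without overlap, at 4.72 to 7.51 CPM and 4.0 to 6.02 CPM in exercised libraries, against 17.6 to 36.4 CPM and 14.1 to 16.9 CPM in resting ones, while in 3-year libraries both were higher after exercise (interaction 3.15 and 2.24, adjusted p = 0.0381 and 0.0272). EEPD1, OSBPL3 (ENSDARG00000033251), a lipid-binding protein, and fbxw11a, an F-box gene, were lower in exercised than in resting 3-year fish on average and higher in exercised than in resting 1-year fish. EEPD1 had 14.3 and 16.6 CPM in exercised and 25.6 to 73.5 CPM in resting 3-year libraries, against 80.1, 126 and 172 CPM in exercised and 27.9 to 37.0 CPM in resting 1-year libraries (interaction -3.43, SE 0.56, adjusted p = 0.0482). The interaction for OSBPL3 (ENSDARG00000033251) was -2.74 and for fbxw11a -2.39 (adjusted p = 0.0440 and 0.0407). On leaving out single libraries 0 to 37 genes were called. None of the 88 genes named for age in the 13 libraries was among the 20, and their smallest adjusted p for the interaction was 0.155, for loxl2a. At a share of 0.11% over all genes tested, few if any of the 88 would be among them. The 88 were also chosen for an age effect over both exercise states, so their absence does not show the same age effect in both.

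**Figure D5:**
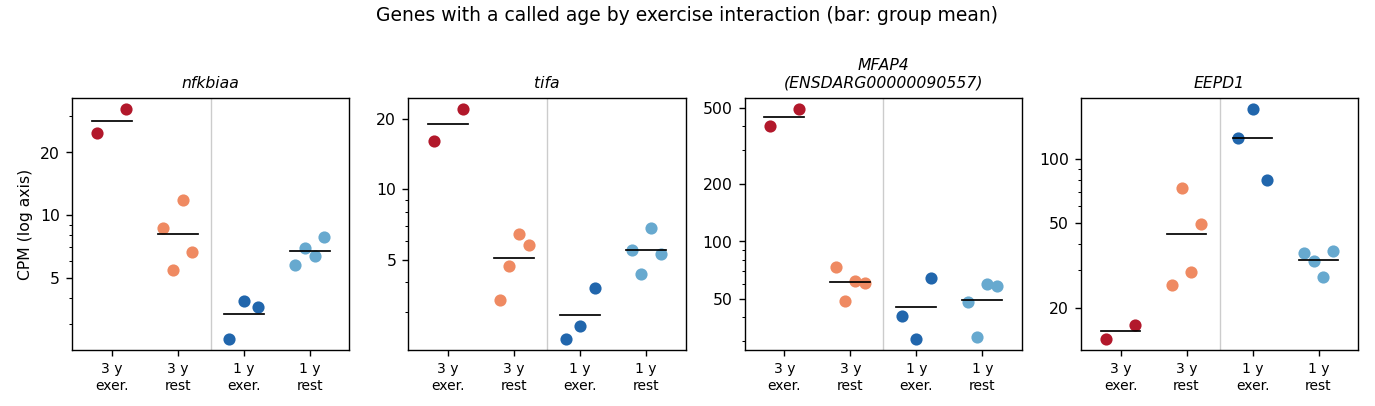
CPM on a log axis of 4 genes with a called interaction of age and exercise in each of the 13 libraries, with a bar at the group mean. The 2 exercised 3-year libraries lie above the other 11 for nfkbiaa, tifa and MFAP4; for EEPD1 the 3 exercised 1-year libraries lie highest.

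Exercise, averaged over age, gave no call in the 13 libraries by edgeR's quasi-likelihood test. The smallest adjusted p was 0.0718, 2050 genes had an unadjusted p under 0.05, and DESeq2 called 320. Some of the genes nearest to the threshold, none of which passed, had these values. FOXO1 (ENSDARG00000099555), a factor active in fasting, had 60.8 and 128 CPM in exercised and 19.9 to 35.7 CPM in resting 3-year libraries, against 72.8, 149.9 and 206 CPM in exercised and 7.91 to 14.9 CPM in resting 1-year libraries (log2 difference 3.00, SE 0.40, adjusted p = 0.0718). PPARGC1A, a coactivator of mitochondrial and gluconeogenic genes, had 6.78 and 17.6 CPM in exercised and 0.333 to 3.11 CPM in resting 3-year libraries, against 7.43, 33.1 and 49.1 CPM in exercised and 0.609 to 0.834 CPM in resting 1-year libraries (log2 difference 4.32, SE 0.67, adjusted p = 0.106). Exercised libraries did not overlap with resting ones of the same age for either gene. Both genes were taken for their small p, so this follows in part from the choice. SLC40A1, the iron exporter ferroportin, had a log2 difference of 1.53, and cyp2k31, srsf5a and MYCL had -4.18, -0.73 and -1.08 (adjusted p = 0.106, 0.0718, 0.125 and 0.125).

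In all 20 libraries the age effect, fitted in the same way, had 1811 calls among 18079 genes (10% of the genes tested), 774 higher and 1037 lower. The 13 libraries are part of the 20, so the results are not independent. Lower members of cholesterol synthesis numbered 17 in the 13 libraries and 19 in all 20, and those of oxidative phosphorylation 7 and 39. Higher members of complement numbered 4 in the 13 libraries and 7 in all 20, and those of the myeloid list 10 and 14. LSS had a log2 difference of -4.68 in the 13 libraries and -4.59 in all 20, hamp 4.21 and 3.99, and cry3b 1.8 and 1.83. CYB5R2 had -1.68 in the 13 libraries and -0.94 in all 20, where it was not called (adjusted p = 0.118). Whether the age effect differed between the 13 libraries and the other 7 was tested over all 20 libraries. No gene was called by edgeR (smallest adjusted p = 0.741, 656 genes with an unadjusted p under 0.05), and DESeq2 called 5. The p-values do not show that the effects are alike, and no gene can be called particular to the libraries with little fabp2.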

How the data were processed

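Raw read counts per gene were deposited by the authors for 20 libraries of a non-stranded TruSeq v2 preparation, per the labels' protocols. The tools bcl2fastq 1.8.4, STAR 2.4.1d, featureCounts 1.4.6-p4 and build GRCz10 are named in the submitters' processing notes, with no settings. How multi-mapping reads were treated is not given, so copies of a gene family may share reads. The deposited RPKM values were not used.

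The 13 libraries with fabp2 of at most 100 CPM were fitted in R 4.3.3 with edgeR 4.0.16 (filterByExpr, TMM scaling, quasi-likelihood test, Benjamini-Hochberg adjustment over all genes tested), with age and exercise as factors. A fit with 4 group means gave the age effects at rest and after exercise and their interaction. CPM used TMM library sizes, and sums over lists use plain totals. Total counts of 33046127 to 47169864 per library set the precision. Symbols matched 26269 of 32105 gene IDs (81.82%), and 4301 IDs share a symbol. The code was tested on simulated data.

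Genes were named by a rule: the 10 with the smallest p and 4 with the largest fold in each direction, called, with no overlap of the ages and a mean of at least 5 CPM, and up to 4 called members per list. Up to 5 per direction were named for other comparisons, or 3 where none passed. The members, the 37 lists and the tests were chosen with earlier results of these data known. Alternatives were DESeq2 1.42.0, voom of limma 3.58.1, other scaling and filters, covariates and leaving out libraries; those that leave out the 4 pancreas-rich libraries or the extremes of the third principal component were chosen after seeing the data. Some genes that the rule names are not reported here. Replicate numbers follow accession order and pair nothing.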

Additional observations from a re-analysis of the deposited data

Results flagged for a closer look

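Among 192 sets of 6 or 7 values of a named gene at one age, 9 had 1 library far from the others. Chance gives about 1 in 20, so the number found was about that expected by chance, and the values below are a description only. Among 3-year libraries, resting replicate 1 stood apart with 5.73 CPM of SCD, 61.8 CPM of cox6a1 (ENSDARG00000022438) and 0.120 CPM of gsta.2, resting replicate 2 with 6.24 CPM of ARSG, and resting replicate 5 with 13.6 CPM of rps6kb1b. Among 1-year libraries, resting replicate 3 stood apart with 16.6 CPM of SCD, 24.3 CPM of cyp2k18 and 1436 CPM of itih3a.1, and exercised replicate 2 with 17.9 CPM of CLASP1.

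The age effect differed between exercised and resting fish, by the test of the interaction, for 20 genes. The interactions of the 8 named were 2.24 for pbxip1a, 2.81 for nfkbiaa, 2.82 for tifa, 2.99 for MFAP4 (ENSDARG00000090557), 3.15 for SOX6, -2.39 for fbxw11a, -2.74 for OSBPL3 (ENSDARG00000033251) and -3.43 for EEPD1, all on the log2 scale.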

How the results depend on the processing

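The age effect, with 956 calls in 13 libraries, had 2331 calls by DESeq2 (1092 higher and 1239 lower), 1450 with contrasts of 4 group means, 401 without the 2 extremes of the third principal component and 4 without the 4 pancreas-rich libraries. With the exocrine pancreas level as a covariate it had 806, and with the erythrocyte level 641. With fabp2 of at most 1000 CPM (16 libraries) it had 2629, of which 1353 were higher and 1276 lower, against 389 and 567 in the 13. Leaving out single libraries gave 358 to 1634 calls. The count moved by over 1.5 times without 3-year exercised replicates 3 (558) or 4 (358), 3-year resting replicates 1 (1634) or 2 (511), 1-year exercised replicates 1 (568) or 5 (567), and 1-year resting replicates 1 (408), 2 (420) or 4 (576). Age at rest, with 434 calls, had 1378 by DESeq2 and 85 to 762 on leaving out single libraries; age after exercise, with 437, had 1555 and 17 to 687. The interaction, with 20, had 405 by DESeq2, 51 with a stricter filter, 0 without the pancreas-rich libraries and 0 to 37 on leaving out single libraries. Exercise, with 0, had 320 by DESeq2, 10 with a stricter filter and 0 to 2 on leaving out single libraries. Age in all 20 libraries, with 1811, had 2782 by DESeq2 and 1362 to 2892 on leaving out single libraries, the highest without 1-year resting replicate 5. The difference between the 13 and the other 7 libraries, with 0, had 5 by DESeq2 and 0 to 2 on leaving out single libraries. Of 2189 pairs of a gene named for age and an alternative, 1676 kept the call, 513 lost it and 0 turned direction. The cause of these changes was not tested, and leaving out libraries also lowers their number. The named genes were chosen as called in the 13 libraries, which the alternatives reuse, so kept directions are no independent support. No paired analysis was possible because the replicate numbers follow accession order and the labels give no pairing.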
